A study of Mus musculus with 22 samples.

Results

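The Clca genes encode a family of secreted or membrane-bound metalloproteases that lie side by side in one cluster of the mouse genome. The 5 genes Clca1, Clca2, Clca3a1, Clca4a and Clca4b were followed here by their symbols, out of 46078 genes in the count table, in the distal colon of C57BL/6, Winnie and Winnie-Prolapse mice. The family was selected on the fold change of Clca4b between Winnie and C57BL/6 mice, chosen for its large rise, so the comparison of Winnie with C57BL/6 mice, and every comparison of Clca4b between groups, is given as a description with no test. The 3 other Clca genes in the table (Clca3a2, Clca3b and the pseudogene Clca4c-ps) served for comparison.

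Winnie mice carry a missense mutation of Muc2, the gene of the main colonic mucin, and develop chronic colitis without any added agent. Polyadenylated RNA was sequenced from 8 C57BL/6 mice (wild type, 14 weeks of age, 4 males and 4 females), 7 Winnie mice (14 weeks, 3 males and 4 females) and 7 Winnie-Prolapse mice (18 weeks, 4 males and 3 females), the last described in the labels as severely inflamed. Age and the Winnie-Prolapse group cannot be told apart, and replicate numbers only name libraries. The 22 libraries totalled from 24.82 M to 36.34 M counts, so the 3 counts that a count of 0 still allows came to 0.0825 to 0.1209 CPM (counts scaled to the library total), for counting error only. Gene counts do not show the mutation. Of the libraries, Winnie-Prolapse replicate 6 stood apart by mammary gland transcripts and C57BL/6 replicate 7 by its Muc2 and Clca4a levels. Several results that turn on them are given with and without them, but correlations and the fitted value of Clca3a2 are given only with them. Since each sample was a piece of whole tissue, fewer cells of a type and less RNA per cell cannot be told apart.

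CLCA proteins cleave themselves and are named for their link to calcium-activated chloride currents. Clca1 is made by goblet cells and is one of the abundant proteins of intestinal mucus, where it takes part in mucus processing, and in the airway it is a classic target of IL-13 and STAT6. Clca4a is an epithelial gene of the intestine, Clca2 is best known from stratified squamous epithelia, and Clca3a1 has been described in lymphatic endothelium among other tissues. A defined role of Clca4b in the colon was not assumed.

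All 8 Clca genes of the table lie on the minus strand of chromosome 3 within 369.8 kb (GRCm38, GENCODE M21). Clca3a1 (ENSMUSG00000056025) spans chr3:144729677-144760977 and overlaps an antisense gene, Gm34866. Clca4b (ENSMUSG00000074195) spans chr3:144910921-144932529 and Clca4a (ENSMUSG00000068547) spans chr3:144952480-144975045, where Gm16233 and Gm35066 lie on the other strand. Clca1 (ENSMUSG00000028255) and Clca2 (ENSMUSG00000036960) follow at chr3:145003817-145032776 and chr3:145070263-145099443. Each of these 5 is annotated as protein coding.

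The members differ in how far their reads can be told apart. Along their main transcripts Clca4b and Clca4a were 95.6% identical over 2996 aligned bases, and Clca4b and the pseudogene Clca4c-ps were 94.5% identical. Of the 100-base windows of the Clca4b transcript 6.49% occurred unchanged in another Clca transcript, against 17.28% for Clca4a and 8.67% for Clca3a1, which was 96.4% identical with Clca3a2. No window of Clca1 or Clca2 was shared. How the counting treated reads that match several genes is not given in the sources used here, so values of Clca4b, Clca4a and Clca3a1 carry this uncertainty.

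In C57BL/6 colon Clca1 was the leading Clca transcript, except in replicate 7, where Clca4a was. Per kilobase of exon, the median level in C57BL/6 libraries was 725 CPM per kb for Clca1, 58.7 for Clca4a, 1.99 for Clca4b, 0.914 for Clca3a1 and 0.16 for Clca2. Clca1 exceeded Clca4a in 7 of 8 libraries, whereas Clca3b, with a median of 22 CPM per kb, lay below Clca4a and above Clca4b in 8 of 8 libraries. The order was different in Winnie-Prolapse libraries, where Clca4b stood first with 894 CPM per kb, followed by Clca3b with 385, Clca4a with 143, Clca1 with 26.2, Clca3a2 with 13.8, Clca3a1 with 5.15 and Clca2 with 0.214. Per kb, Clca4b exceeded Clca3b in 7 of 7 of these libraries, although the ranges of the 2 genes overlapped. In Winnie libraries the medians of Clca4b, Clca1 and Clca4a (257, 239 and 172 CPM per kb) were close, and Clca4b exceeded Clca1 in 3 of 7 libraries.

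**Figure D1:**
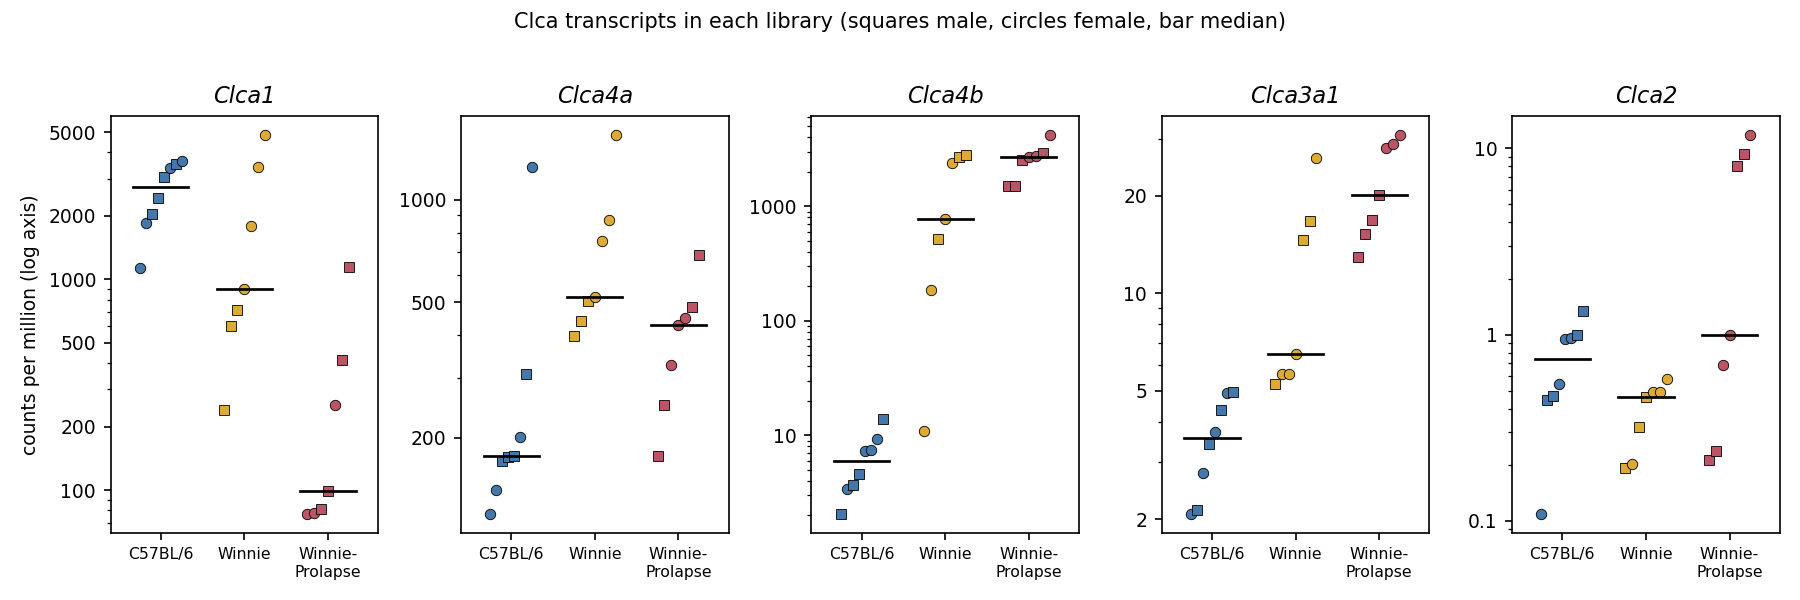
CPM (log axis) of the 5 Clca members in each of the 22 libraries, by group; squares are males, circles are females and the bar is the group median. Clca4b runs from 2.06 to 14.0 CPM in C57BL/6 and from 1494 to 4199 CPM in Winnie-Prolapse, with Winnie libraries spread from 10.8 to 2782 CPM between them.

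Clca4b, the gene behind the choice of this family, went from a trace transcript to the leading Clca transcript by median. In Winnie-Prolapse replicate 6, however, Clca3b was higher in CPM (2755 against 2678 CPM). C57BL/6 libraries held 2.06 to 14.0 CPM (median 5.96), Winnie libraries 10.8 to 2782 CPM (median 769.8) and Winnie-Prolapse libraries 1494 to 4199 CPM (median 2678). Every Winnie-Prolapse library was above every C57BL/6 library, and 6 of 7 Winnie libraries were. The exception was Winnie replicate 5, which at 10.8 CPM lay within the C57BL/6 range.

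Single Winnie libraries differed in Clca4b far more than libraries of the other groups. Replicates 2, 1 and 7 held 2782, 2713 and 2393 CPM, which is within the Winnie-Prolapse range. Replicates 6, 3 and 4 held 769.8, 519.9 and 184.5 CPM, below every Winnie-Prolapse library. The highest Winnie library was 257-fold above the lowest, against 6.82-fold in C57BL/6 and 2.81-fold in Winnie-Prolapse. C57BL/6 mice averaged 6.48 ± 3.91 CPM (n = 8), Winnie mice 1339 ± 1236 CPM (n = 7) and Winnie-Prolapse mice 2586 ± 924 CPM (n = 7), with SD as the error here and below. The fitted log2 fold change was 7.77 ± 0.95 (SE) for Winnie against C57BL/6, 8.74 ± 0.50 for Winnie-Prolapse against C57BL/6 and 0.99 ± 0.75 for Winnie-Prolapse against Winnie.

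The promoter of Clca4b is shown beside that of Clca3a1, since these 2 members were both higher in every Winnie-Prolapse library than in any C57BL/6 library, as were 6.5% of all genes tested. Both sequences are from RefSeq (GRCm38.p6, minus strand) and run 5′ to 3′ from 250 bases before to 50 bases after the start, at chr3:144932480-144932779 for Clca4b and chr3:144760928-144761227 for Clca3a1. The capitals mark 2 overlapping matches of TATATA.
Clca4b: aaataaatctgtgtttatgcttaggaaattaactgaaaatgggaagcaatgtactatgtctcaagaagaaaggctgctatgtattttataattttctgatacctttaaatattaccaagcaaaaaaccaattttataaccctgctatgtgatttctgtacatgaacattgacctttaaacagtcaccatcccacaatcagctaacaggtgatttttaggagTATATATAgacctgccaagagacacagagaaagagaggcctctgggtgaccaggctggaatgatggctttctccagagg
Clca3a1: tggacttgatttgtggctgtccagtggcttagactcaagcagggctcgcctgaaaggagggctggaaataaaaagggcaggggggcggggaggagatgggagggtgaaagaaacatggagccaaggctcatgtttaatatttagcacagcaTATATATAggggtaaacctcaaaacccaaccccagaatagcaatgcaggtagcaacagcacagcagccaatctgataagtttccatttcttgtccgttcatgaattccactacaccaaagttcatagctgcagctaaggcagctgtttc
The matches began 29 and 27 bases before the start in Clca4b, and 99 and 97 bases before it in Clca3a1. Among 32851 RefSeq promoters of the same length, 5.7% held TATATA. The promoters of Clca3a2 and Clca3b held 0 matches, although both genes were also higher in every Winnie-Prolapse library than in any C57BL/6 library. That of Clca2 held 0 as well. A STAT-type motif (TTCNNNGAA) was not in either window and was found in 8.3% of all promoters, with 1 match in the Clca2 promoter. The AP-1-type motif TGANTCA, found in 7.8% of all promoters, was not in either window but occurred once each in Clca3a2 and Clca3b. Both strands were read for each motif, and a RefSeq promoter was matched for 5 of the 8 Clca genes, not including Clca1 and Clca4a. These matches describe letters in a window and show no binding.

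Across the 22 libraries, the genes whose log2 CPM went most closely with Clca4b were Psmb9, an interferon-inducible subunit of the immunoproteasome (Pearson r = 0.98), Nlrc5, the activator of MHC class I genes (r = 0.97), and Zbp1, an interferon-induced sensor of nucleic acids (r = 0.97). With the mean of each group subtracted, Psmb9 (r = 0.89), Trim40 (r = 0.89) and Zbp1 (r = 0.88) came first among 15361 genes ranked. Psmb9 held 9.74 to 15 CPM in C57BL/6, 14.2 to 138.6 CPM in Winnie and 78.8 to 149.5 CPM in Winnie-Prolapse. In Winnie replicate 5, the library lowest in Clca4b, Psmb9 was also at its Winnie minimum of 14.2 CPM. These correlations share libraries and group structure and are given as a description.

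Clca1, the goblet cell member, went the other way. C57BL/6 libraries held 1130 to 3650.1 CPM (median 2738), Winnie libraries 240.7 to 4842 CPM (median 901.9) and Winnie-Prolapse libraries 77.1 to 1149 CPM (median 98.9). Of the Winnie-Prolapse libraries, 6 of 7 lay below every C57BL/6 library, and replicate 1 overlapped with them. The 3 groups averaged 2629 ± 908 (n = 8), 1786 ± 1716 (n = 7) and 307 ± 392 CPM (n = 7) in this order, and the last mean fell to 167 ± 138 CPM without Winnie-Prolapse replicate 1.

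In Winnie-Prolapse against C57BL/6 mice, a comparison that shares the C57BL/6 libraries with the one that chose the family, Clca1 fell by 3.00 ± 0.61 (SE) on the log2 scale (adjusted p = 0.000806 in the quasi-likelihood test of edgeR). The call was close to the limit of 0.001. Of 15 fits that left out 1 library, 13 gave an adjusted p above that limit, up to 0.00209. Over all 15 fits the log2 fold change lay between -3.86 and -2.81. The value of -3.86, without Winnie-Prolapse replicate 1, kept the call (edgeR adjusted p = 3.3e-05). The adjusted p was 0.00191 without Winnie-Prolapse replicate 6 and 0.000701 without C57BL/6 replicate 7. Against Winnie, Clca1 was -2.57 ± 0.81 (SE) on the log2 scale in Winnie-Prolapse and was not past the limit (edgeR adjusted p = 0.0581). Leaving out 1 library gave -3.41 to -2.08, the first without Winnie-Prolapse replicate 1 (adjusted p = 0.0168). The value stood at -0.19 in males alone (adjusted p = 0.976) and -4.33 in females alone (0.00958), and the difference between the sexes in this comparison was not tested. The fitted value of Winnie against C57BL/6 was -0.44 ± 0.52 (SE), and it was -2.39 in males alone and 0.25 in females alone.

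Clca1 and Clca4b stood in different proportions in single Winnie libraries. Replicates 4, 6 and 5 held 4842, 3401 and 1797 CPM of Clca1, of which the first 2 had 184.5 and 769.8 CPM of Clca4b and the last 10.8 CPM. In replicates 1, 2 and 7, where Clca4b was at least 2393 CPM, Clca1 stood at 599.8, 240.7 and 901.9 CPM. Replicate 3 had 717 CPM of Clca1. Over the 22 libraries Pearson's r between the 2 genes was -0.72 on the log2 scale, and -0.31 with group means subtracted, as a description of libraries that share their groups.

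**Figure D2:**
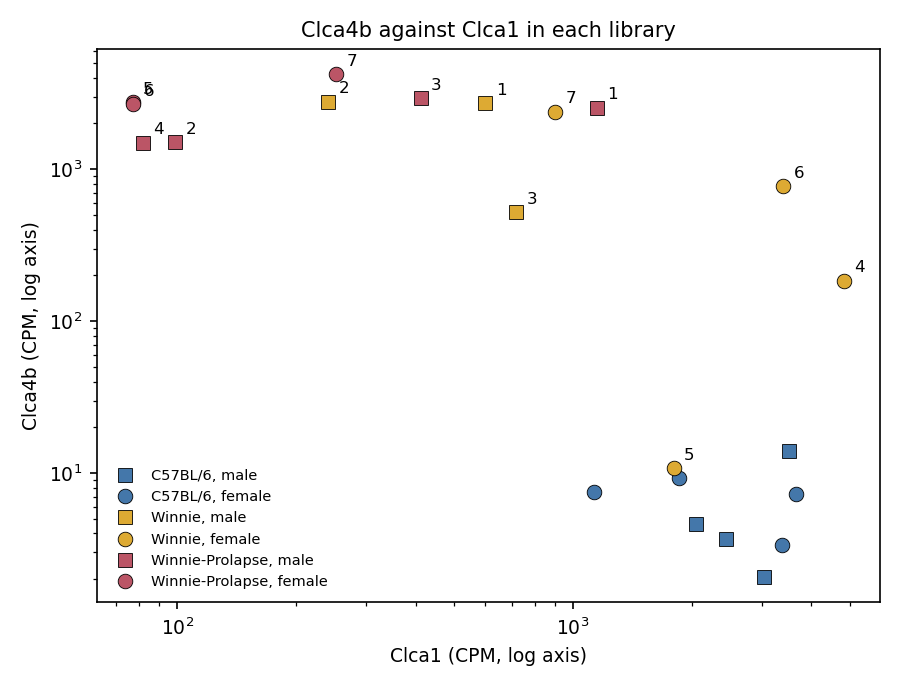
Clca4b against Clca1 in CPM, both on log axes, 1 point a library, with the replicate number beside each Winnie and Winnie-Prolapse library. The C57BL/6 libraries lie at the lower right with at most 14.0 CPM of Clca4b, and 6 of 7 Winnie-Prolapse libraries lie at the upper left below every C57BL/6 value of Clca1.

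The genes most like Clca1 over the 22 libraries were Klk1, a kallikrein protease on the goblet cell list (r = 0.99), Scin, an actin-severing protein (r = 0.97), and Slc26a2, a sulfate transporter (r = 0.96). With group means subtracted they were Klk1 (r = 0.96), Scin (r = 0.92) and Hao2, a peroxisomal oxidase (r = 0.91). Klk1 held 495 to 1191 CPM in C57BL/6, 171.1 to 1484 CPM in Winnie and 64.5 to 402 CPM in Winnie-Prolapse.

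Goblet cell markers were read beside Clca1. Of 18 listed genes 17 were tested in Winnie-Prolapse against C57BL/6, where 2 were called higher and 1 lower, beside 9.84% and 8.47% of all 17397 genes tested, with a median log2 fold change of -0.40 against -0.01 over all genes. At an adjusted p under 0.05 with the same fold, 6 were lower and 2 higher, beside 34.4% of all genes in either direction. The summed level of the 18 was 10227 to 15397 CPM in C57BL/6, 7369 to 21484 CPM in Winnie and 4821 to 13796 CPM in Winnie-Prolapse. In the last group, replicates 1 and 3 had the highest sums and also the highest Clca1. Muc2 itself, the mutated gene, had a log2 fold change of -0.84 in Winnie-Prolapse (edgeR adjusted p = 0.0155) and Fcgbp, a mucus protein, -0.95 (adjusted p = 0.0506). Zg16, a mucus lectin, stood at -0.88 (adjusted p = 0.256), and none of these 3 passed the limit.

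Of genes shared by all colonic epithelium, Epcam held 1489 to 1747 CPM in C57BL/6 and 1216 to 1830 CPM in Winnie-Prolapse. The lowest of these was Winnie-Prolapse replicate 6, and the next was 1399.8 CPM. In replicate 6 mammary transcripts took up part of the library total, which lowers the CPM of other genes. The median log2 fold change of the 10 listed genes was 0.17. None of the 10 was called in Winnie-Prolapse against C57BL/6 by edgeR or by DESeq2, which called 3186 and 5004 over all genes. Of the 10, 4 had an unadjusted p under 0.05, beside 10174 of 17397 genes. Surface colonocyte genes had a median of -1.14, with 3 of 15 tested called lower and none higher, beside the same 8.47% and 9.84% of all genes. Among these, Slc26a3, the chloride and bicarbonate exchanger of the surface, fell by 2.55 on the log2 scale (edgeR adjusted p = 0.000714), whereas Lypd8, the most abundant of the list, was at 0.01 (adjusted p = 0.973). At an adjusted p under 0.05 with the same fold, 8 of the 15 were lower and 1 higher, beside 34.4% of all genes in either direction. The part of goblet cell and surface cell number in the Clca1 values was not tested.

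Clca4a, the close sequence relative of Clca4b, had its highest median in Winnie mice. C57BL/6 libraries held 119.7 to 1246 CPM (median 176.4), Winnie libraries 397 to 1548 CPM (median 516.6) and Winnie-Prolapse libraries 177 to 688 CPM (median 428). All 3 groups overlapped. Without C57BL/6 replicate 7, the other 7 C57BL/6 libraries reached no more than 307.5 CPM, which is below the lowest Winnie library but above 2 Winnie-Prolapse libraries, replicates 4 and 2, at 177 and 249 CPM. C57BL/6 mice averaged 317 ± 380 CPM with that library (n = 8) and 185 ± 60.3 CPM without it (n = 7). Winnie mice averaged 719 ± 404 CPM (n = 7) and Winnie-Prolapse mice 400.2 ± 168.8 CPM (n = 7).

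The log2 fold change of Clca4a was 0.43 ± 0.50 (SE) in Winnie-Prolapse against C57BL/6 (edgeR adjusted p = 0.484) and -0.85 ± 0.38 (SE) against Winnie (adjusted p = 0.159). Neither passed the limit. Without C57BL/6 replicate 7 the first of these became 1.24 ± 0.30 (SE) with an adjusted p of 0.00278 in the same test, still above 0.001. For Winnie against C57BL/6 the fitted value was 1.29 ± 0.51 (SE), and 2.07 ± 0.32 without that library. C57BL/6 replicate 7 also had the highest Muc2 (7901 CPM) and the lowest Ano1 (97.3 CPM) of its group. Other goblet cell genes did not follow Muc2, since Fcgbp (1082 CPM) and Zg16 (1059 CPM) were the lowest of the group. The goblet cell sum of this library, 12317 CPM, lay within the C57BL/6 range. The part of this library's makeup in its Clca4a level was not tested.

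The ratio of Clca4b to Clca4a, which rests on the gene the family was chosen for, was 0.00602 to 0.0658 in C57BL/6, 0.021 to 7 in Winnie and 4.27 to 9.33 in Winnie-Prolapse. Winnie libraries overlapped with both of the other groups, which were apart from each other. The most similar genes to Clca4a were St14, the membrane protease matriptase (r = 0.89), B3galt5, a glycosyltransferase (r = 0.89), and Ptprh, a receptor phosphatase of intestinal epithelium (r = 0.89). With group means subtracted they were Ptprh (r = 0.91), Agpat4 (r = 0.90) and Sdcbp2 (r = 0.90). Ptprh and Sdcbp2, like Clca4a, were highest within C57BL/6 in replicate 7, at 346.6 and 315.8 CPM.

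Clca3a1 was a low transcript that rose in Winnie-Prolapse mice. C57BL/6 libraries held 2.08 to 4.95 CPM (median 3.56), Winnie libraries 5.24 to 26.1 CPM (median 6.47) and Winnie-Prolapse libraries 12.9 to 30.8 CPM (median 20.1). Neither diseased group overlapped with C57BL/6, while the 2 overlapped with each other. Among all genes, 0.463% were higher in Winnie with no overlap. In Winnie-Prolapse against C57BL/6 the log2 fold change was 2.73 ± 0.27 (SE) (edgeR adjusted p = 1.64e-06), and every fit that left out 1 library kept the call. Against Winnie it was 0.95 ± 0.40 (SE) with an edgeR adjusted p of 0.136. For Winnie against C57BL/6 the fitted value was 1.80 ± 0.37 (SE).

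The nearest gene to Clca3a1 in pattern was Clca3b of the same cluster (r = 0.95, and 0.79 with group means subtracted). Xbp1, the transcription factor of the secretory stress response, and B2m, the light chain of MHC class I, followed at r = 0.94 each. With group means subtracted, Clca4c-ps (r = 0.77) and the phospholipase Pla2g16 (r = 0.76) came next. Clca3b, which shares 82.0% of the aligned transcript with Clca3a1, held 46.6 to 91.6 CPM in C57BL/6, 95.1 to 1410 CPM in Winnie and 496 to 2755 CPM in Winnie-Prolapse. Of 7 lymphatic endothelium genes 1 was called higher in Winnie-Prolapse against C57BL/6, beside 9.84% of all genes. At an adjusted p under 0.05 with the same fold 5 were higher, beside 34.4% of all genes in either direction. The lymphatic genes had a median of 0.83, with summed levels of 71.7 to 107.3 CPM in C57BL/6 and 90.0 to 305.8 CPM in Winnie-Prolapse. Of the 3 highest in level, Ccl21a was at 0.78 on the log2 scale (edgeR adjusted p = 0.00186) and Mmrn1 at 0.83 (adjusted p = 0.0419). Lyve1 was at 0.49 (adjusted p = 0.199). The part of lymphatic vessels in the Clca3a1 values was not tested.

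Of the 3 Clca genes outside the chosen 5, Clca3b and Clca3a2 were called higher in Winnie-Prolapse than in C57BL/6 by edgeR, beside 9.84% of all genes. Clca3b had a log2 fold change of 4.50 (adjusted p = 4.69e-07) and Clca3a2 of 4.94 (5.13e-05). Clca4c-ps had 1 to 10 counts in C57BL/6 libraries, 5 to 122 in Winnie and 29 to 161 in Winnie-Prolapse libraries, and since it passed the filter on low counts only where Winnie-Prolapse libraries entered, its test is not read. Clca3a2, a family member known from mammary gland, reached 405.3 CPM in Winnie-Prolapse replicate 6 against at most 68.3 CPM in the other 6, and its mean fell from 93.4 to 41.4 CPM without that library. In replicate 6 the summed level of 7 mammary genes was 189276 CPM, while it was 2.62 to 58.9 CPM in the other Winnie-Prolapse libraries. Without it, Clca3a2 still ran from 14.0 to 68.3 CPM, above every C57BL/6 value.

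Clca2 was the rarest member. C57BL/6 libraries held 0.109 to 1.33 CPM (3 to 39 counts) and Winnie libraries 0.193 to 0.574 CPM (6 to 17 counts), so that single values rest on few counts. Winnie-Prolapse libraries held 0.212 to 11.8 CPM (median 0.993). Within that group, replicates 6, 4 and 2 held 11.8, 9.29 and 8.08 CPM, and the other 4 held 0.212 to 0.993 CPM, inside the C57BL/6 range.

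In the edgeR fit Clca2 had a log2 fold change of 2.71 ± 0.81 (SE) in Winnie-Prolapse against C57BL/6 (adjusted p = 0.0105) and of 3.53 ± 0.88 (SE) against Winnie (adjusted p = 0.0279), both above the limit of 0.001. DESeq2 placed both below it, with adjusted p of 0.00077 and 0.000151. Leaving out Winnie-Prolapse replicate 6 lowered the values to 2.10 and 2.91. The description for Winnie against C57BL/6 was -0.82 ± 0.40 (SE).

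The genes most like Clca2 were Celsr2, an adhesion receptor (r = 0.90), Lor, the cornified envelope protein loricrin (r = 0.86), and Acsl1, a fatty acid ligase (r = 0.85), and they stayed first with group means subtracted (r = 0.87, 0.82 and 0.80). Lor held 114.8, 150.6 and 48.9 CPM in Winnie-Prolapse replicates 2, 4 and 6, 14.2 CPM in replicate 5 and 0.589, 0.272 and 0.148 CPM in replicates 7, 3 and 1, and at most 1.16 CPM in every C57BL/6 and Winnie library.

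Markers of stratified squamous epithelium were read beside Clca2. Of 20 listed genes 10 passed the filter on low counts in Winnie-Prolapse against C57BL/6 and 8 in Winnie against C57BL/6, so that some entered the test only through the group where they were high, and they are given by level. The summed level of the 20 was 118.7 to 419.5 CPM in C57BL/6, 153.2 to 487.4 CPM in Winnie and 378.6 to 4536 CPM in Winnie-Prolapse. Low sums were largely 1 gene, Anxa8, which averaged 215.3 CPM of a mean sum of 236.8 CPM in C57BL/6. In Winnie-Prolapse Anxa8 held 268.2 to 761.5 CPM and Sprr1a 102.2 to 289.4 CPM. Replicates 2 and 4, with 4375 and 3565 CPM of squamous markers, were high in Clca2 and in Lor. Replicate 7, with 4536 CPM of these markers and 1107 CPM of Krt14, a keratin of the basal layer, was low in Lor and had 0.993 CPM of Clca2. Replicate 6, the highest in Clca2, had 1157 CPM of squamous markers and was the library with mammary transcripts. Replicate 5, with 1056.5 CPM of squamous markers and 14.2 CPM of Lor, had 0.686 CPM of Clca2. Of its marker sum, Anxa8 made up 438.2 CPM and Sprr1a 174.5 CPM. The part of squamous cells in the Clca2 values was not tested.

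**Figure D3:**
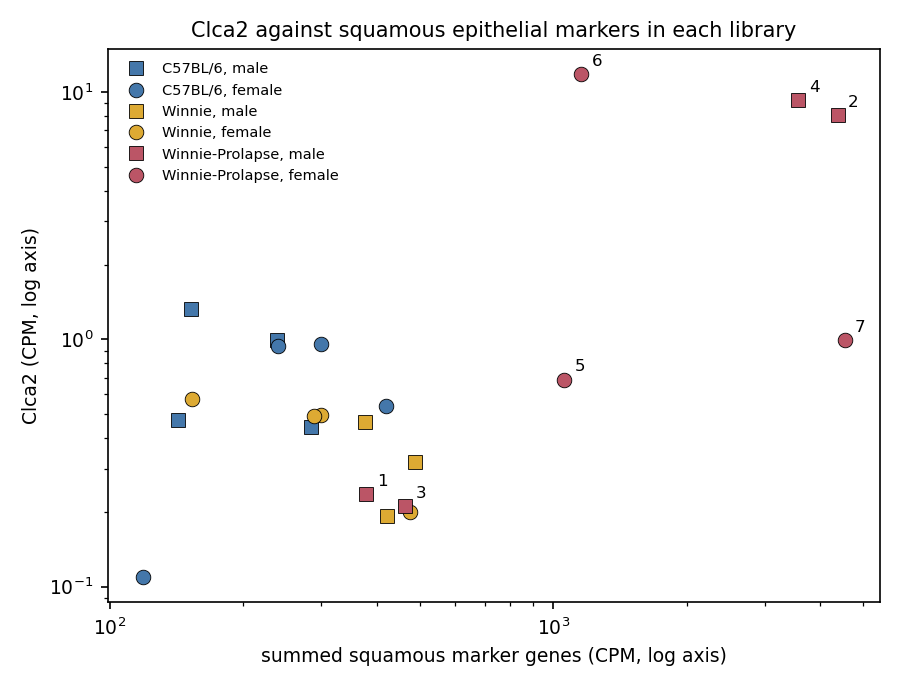
Clca2 (CPM) against the summed level of 20 squamous epithelial marker genes, both on log axes, 1 point a library, with replicate numbers for Winnie-Prolapse. Replicates 2, 4 and 6 stand above 8 CPM of Clca2, while replicate 7, with the largest marker sum of 4536 CPM, stays at 0.993 CPM. In C57BL/6 the marker sum is largely Anxa8 (mean 215.3 of 236.8 CPM).

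Over the tested members, 2 of 4 passed the limits of the study (adjusted p under 0.001 and at least 1.5-fold) in Winnie-Prolapse against C57BL/6, 1 higher (Clca3a1) and 1 lower (Clca1). Of 17397 genes tested, 18.3% were called, 9.84% higher and 8.47% lower, and with 4 genes tested a share of 2 in 4 is not read further. At an adjusted p under 0.05 with the same fold, 3 of 4 members passed, beside 34.4% of all genes. In Winnie-Prolapse against Winnie 0 of 4 members were called by edgeR and 1 (Clca2) by DESeq2, and 4 of 4 had an unadjusted p under 0.05. At an adjusted p under 0.05 Clca2 passed, beside 6.99% of all genes, but 7 of 14 fits that left out 1 library took its edgeR adjusted p above 0.05, the highest being 0.058 without Winnie-Prolapse replicate 6. In that comparison edgeR called 0 of 17041 genes (0.0%) and DESeq2 called 644, and 4743 genes had an unadjusted p under 0.05 in edgeR. For Winnie against C57BL/6, edgeR called 16 of 17289 genes (0.0925%). The comparisons share libraries, so that their values are not independent of each other.

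**Figure D4:**
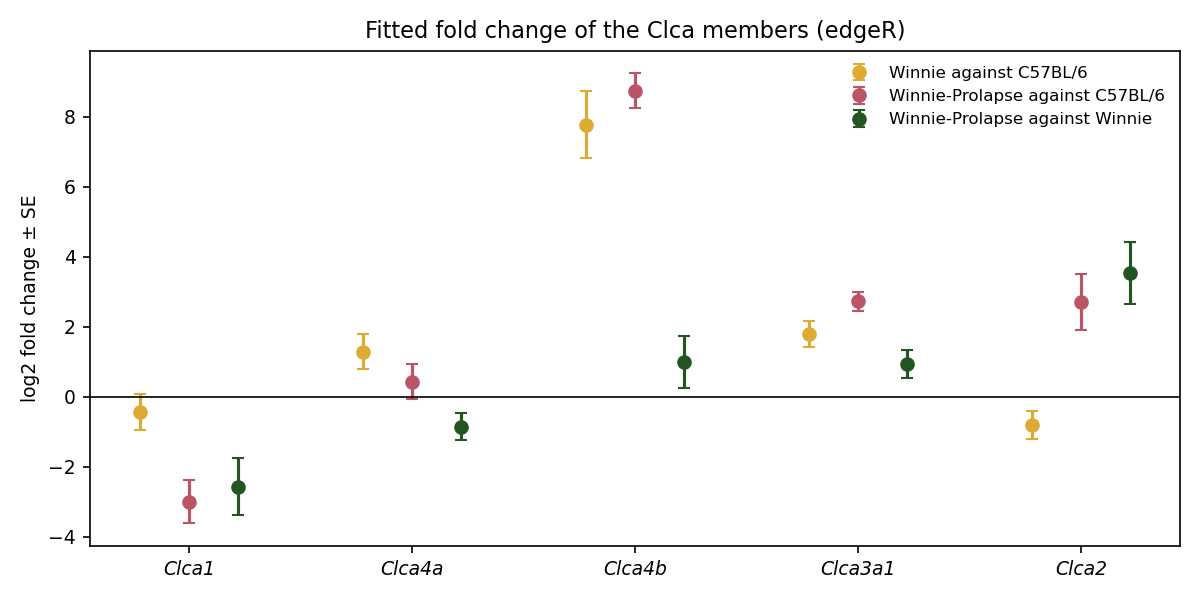
Fitted log2 fold change (edgeR) with its standard error for each Clca member in the 3 comparisons; 0 is no difference. Clca4b shows 7.77 and 8.74 against C57BL/6, Clca3a1 lies above 0 in each comparison, and Clca1 lies at -3.00 and -2.57 in the comparisons of Winnie-Prolapse.

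The makeup of the family was read from shares of its counts. The 8 Clca genes together summed to 3030.2 ± 749 CPM in C57BL/6 (n = 8), 4363 ± 1620.2 CPM in Winnie (n = 7) and 4850 ± 1646 CPM in Winnie-Prolapse mice (n = 7). Clca1 made up 85.6 ± 16.3% of these counts in C57BL/6, then 40.5 ± 29.7% in Winnie mice and 6.34 ± 7.68% with prolapse, the last of which became 3.58 ± 2.63% without Winnie-Prolapse replicate 1 (n = 6). Clca4b made up 0.224 ± 0.135%, 30.3 ± 25.9% and 53.8 ± 7.32%. The share of Clca4a was 11.6 ± 15.7%, 17.1 ± 6.43% and 8.52 ± 3.16%. Without C57BL/6 replicate 7, at 50.2%, the first of these was 6.11 ± 1.64% (n = 7), so that it lay below and no longer above the Winnie-Prolapse mean. Clca3a1 stayed at or under 0.64% and Clca2 at or under 0.337% in every library. Among the rest, Clca3b held 2.33 ± 0.58% in C57BL/6 and 28.9 ± 11.5% in Winnie-Prolapse.

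**Figure D5:**
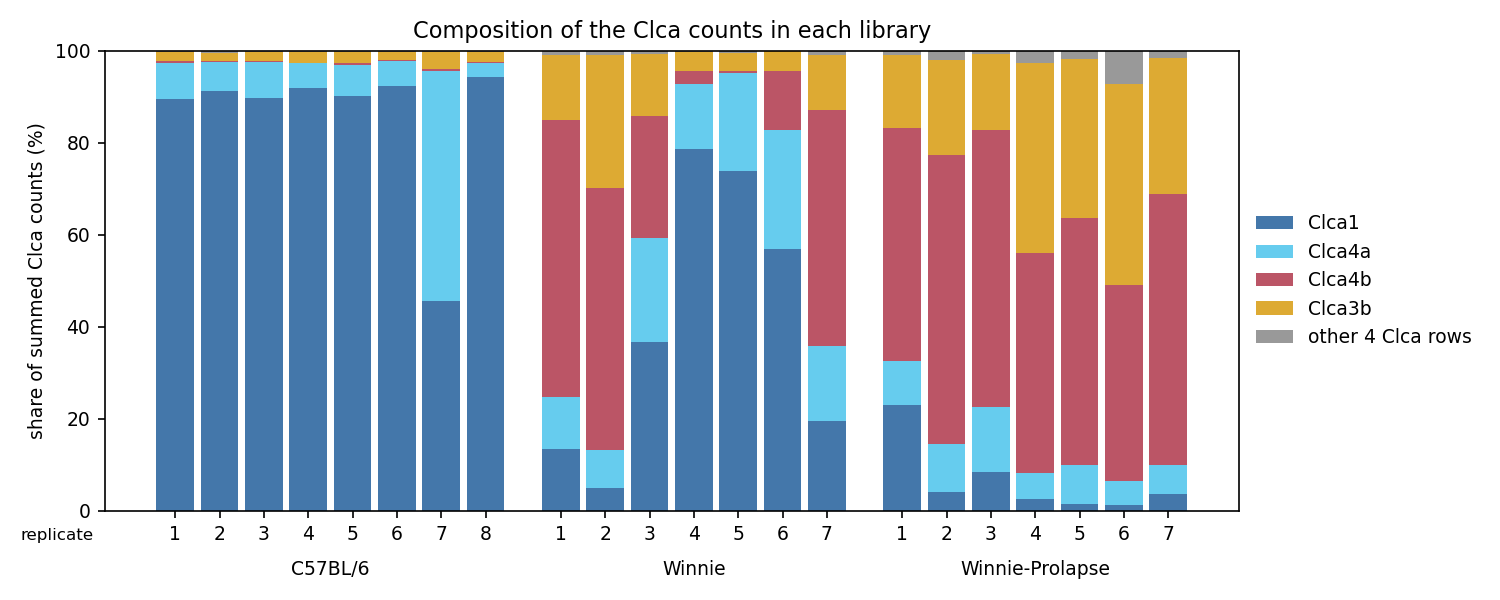
Share of the summed counts of the 8 Clca genes (percent) taken by Clca1, Clca4a, Clca4b, Clca3b and the other 4 in each library, numbered by replicate within its group. Clca1 takes 45.5 to 94.2% in C57BL/6 and 1.23 to 22.9% in Winnie-Prolapse, where Clca4b takes 42.6 to 62.7%, and Winnie libraries lie between or at either end.

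Genes next to the cluster were read for comparison. In Winnie-Prolapse against C57BL/6 the log2 fold change was 0.41 for Sh3glb1 and 0.41 for Odf2l, the nearest protein-coding gene on each side, -0.10 for Hs2st1 and 1.08 for Col24a1. None of the 4 was called by edgeR, beside 18.3% of all genes. An unadjusted p under 0.05 was found for 3, beside 10174 of 17397 genes. DESeq2 called 1 of the 4, and 5004 over all genes.

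Members of pathways tied to CLCA proteins were also read. Of 16 listed genes of the IL-13 and STAT6 pathway 14 were tested in Winnie-Prolapse against C57BL/6, where 5 were called higher and 0 lower, beside 9.84% and 8.47% of all genes. Of the 14, 2 passed the filter on low counts only where Winnie-Prolapse libraries entered, and both were among the 5, so the count is not read further. Il13ra1, a receptor chain of IL-13, rose by 0.61 on the log2 scale (edgeR adjusted p = 1.09e-05), and Stat6 itself was at 0.16 (adjusted p = 0.277). Of 14 genes tested from the chloride and bicarbonate list 4 were called lower and 0 higher, beside the same shares of all genes, with a median of -0.44. At an adjusted p under 0.05 with the same fold, 6 were lower and 2 higher, beside 34.4% of all genes in either direction. Slc12a2, a chloride importer of the basolateral membrane, stood at 0.63 on the log2 scale (edgeR adjusted p = 0.00361). Ano1, the calcium-activated chloride channel that CLCA1 is known to modulate, averaged 305 ± 90.4 CPM in C57BL/6 (n = 8), 310.1 ± 70.4 CPM in Winnie (n = 7) and 165 ± 66.6 CPM in Winnie-Prolapse mice (n = 7). Its log2 fold change of -0.81 in Winnie-Prolapse against C57BL/6 had an edgeR adjusted p of 0.0215.

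The tissue of the groups differed in other ways. Smooth muscle genes were called lower in Winnie-Prolapse for 8 of 8 listed genes, beside 8.47% of all genes (median -1.77, summed level 7082 to 12877 CPM in C57BL/6 and 1435 to 3379 CPM in Winnie-Prolapse). The summed level of 6 neutrophil genes was 0.362 to 3.05 CPM in C57BL/6, 1.41 to 124.6 CPM in Winnie and 66.8 to 1355 CPM in Winnie-Prolapse. Of these 6, 5 passed the filter on low counts in Winnie-Prolapse against C57BL/6 but 2 in Winnie against C57BL/6, so no count of calls is given. Of 6 blood endothelium genes 1 was called higher, beside 9.84% of all genes, with a median of 0.63. Their part in the Clca values was not tested.

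Sex made no called difference for any member. In the fit of males against females over all 22 libraries, 0 of 5 members were called by edgeR or by DESeq2, beside 14 of 18236 genes called by edgeR (0.0768%). An unadjusted edgeR p under 0.05 was found for 0 of 5 members. In the fits of sex, the share of all genes at that unadjusted limit was not counted. Clca4a had the lowest p, with a log2 value of -0.78 ± 0.38 (SE) in males (edgeR adjusted p = 0.964), which became -0.25 ± 0.30 (adjusted p = 0.968) without C57BL/6 replicate 7, a female. For the interaction of sex with group 0 of 5 members were called by either tool, and edgeR called 0 of 18911 genes (0.0%) in each of the 2 interactions, where DESeq2 called 146 and 4. Of the members, Clca1 alone had an unadjusted p under 0.05 for sex by Winnie, at -2.65 ± 1.08 (SE) with an edgeR adjusted p of 0.32. Outside the members, Clca3b had an unadjusted edgeR p of 0.0445 in this interaction (adjusted p = 0.37). For sex by Winnie-Prolapse, Clca3a2 had an unadjusted edgeR p of 0.00376 (adjusted p = 0.911), with Winnie-Prolapse replicate 6 included. Winnie males held 240.7 to 717 CPM of Clca1 and Winnie females 901.9 to 4842 CPM. In Winnie-Prolapse this order was not kept for Clca1, with 81.7 to 1149 CPM in males and 77.1 to 252.3 CPM in females. Clca4a held 397.4 to 502.9 CPM in Winnie males and 516.6 to 1548 CPM in Winnie females, and 177 to 688 CPM and 327.1 to 449.8 CPM in Winnie-Prolapse. Clca3a1 held 12.9 to 20.1 CPM in Winnie-Prolapse males and 28.1 to 30.8 CPM in females, while in Winnie both sexes overlapped. These ranges of 3 or 4 mice are given as a description.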

How the data were processed

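Poly(A) RNA of mouse distal colon was sequenced from stranded libraries in paired ends. The deposited table holds raw read counts per gene, which the authors made with the RNAsik pipeline on GRCm38 (STAR and featureCounts are named in the submitters' processing notes). The annotation release, strand setting and treatment of multi-mapping reads are not given in the sources used here. Members and lists were chosen with earlier results of these data known.

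Counts were tested with edgeR 4.0.16 (R 4.3.3) by the quasi-likelihood test with TMM, filterByExpr and Benjamini-Hochberg adjustment over all genes, each comparison on its own 2 groups. Calls required an adjusted p under 0.001 and 1.5-fold, and for sex and its interactions an adjusted p under 0.05. DESeq2 1.42.0 and the other alternatives are given in the closing section. The fits were tested on simulated data. CPM were counts over library totals, and levels per kb used GENCODE M21 exon lengths. Correlations used log2 CPM with a prior count of 2 over genes with a mean of at least 1 CPM. Named genes were the Clca genes, their neighbours, the 3 highest of each list and the 3 most like each member. Single libraries were singled out after their values were seen. Protein identity, planned at first, was replaced by transcript identity. Libraries of a group differed beyond counting noise (lowest chi-square per degree of freedom 28.83).

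The methods of the study count 1 Winnie colon fewer than the labels, which do not say which, and all 7 labelled Winnie libraries were used. The labels give no litters, cages or batches. The study describes its wild-type mice as littermates of the Winnie mice, all from one breeding colony. Which libraries share a litter, cage or batch is therefore not known. The p-values treat each mouse as independent and measure the spread between these mice. They do not cover any litter, cage or batch that libraries share.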

Additional observations from a re-analysis of the deposited data

Results flagged for a closer look

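For each of the 8 Clca genes in each of the 3 groups, the highest and the lowest library were set against the gap that Dixon's 95% limit allows. Of these 24 groups of values 5 held a library that stood apart, where chance alone would mark about 1 in 20 if values were normally distributed. CPM were skewed in several of these groups, and on the log2 scale, chosen after seeing the data, 2 groups held such a library: Clca4a in C57BL/6 replicate 7 at the high end, and Clca2 in the same library at the low end, on 3 counts. No excess over chance is read from these numbers.

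On the CPM scale, Clca1 in Winnie-Prolapse replicate 1 was at 1149 CPM, against 412.2 CPM in the next library. Clca4a stood apart in C57BL/6 replicate 7 at 1246 CPM, with the next at 307.5 CPM, and in Winnie replicate 6 at 1548 CPM, with the next at 869.4 CPM. Clca3b reached 1410.4 CPM in Winnie replicate 2, against 631.5 CPM. Clca3a2 reached 405.3 CPM in Winnie-Prolapse replicate 6, against 68.3 CPM, in the library that also held the mammary transcripts. The causes were not tested.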

How the results depend on the processing

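The call of Clca1 in Winnie-Prolapse against C57BL/6 was lost with no filter on low counts (-2.98, adjusted p = 0.00103), with all 3 groups in one fit (-2.99, 0.00109), in males alone (-2.57, 0.0393) and in females alone (-4.06, 0.00469), and leaving out 1 library gave -3.86 to -2.81. Clca3a1 lost its call in males alone (2.17, edgeR adjusted p = 0.00104). Clca2 was called by DESeq2 in Winnie-Prolapse against C57BL/6 (2.73) and against Winnie (3.54). Members called in the first comparison numbered 1 with no filter, 1 with all 3 groups in one fit, 0 in males alone and 1 in females alone, and 1 to 2 when 1 library was left out. In the second they numbered 1 at an adjusted p under 0.05 and 1 with DESeq2. For Winnie against C57BL/6, Clca1 moved to -2.39 in males alone. Against Winnie, Winnie-Prolapse gave -0.19 for Clca1 in males alone and -4.33 in females alone, -0.09 and -1.21 for Clca4a, 0.41 and 1.45 for Clca3a1, all above the limit, and 0.12 and 1.94 for Clca4b, with no test. Against C57BL/6, Clca4a was 1.03 in Winnie-Prolapse males and 0.07 in females. Males against females ran from -0.94 to -0.25 for Clca4a on leaving out 1 library. Shares of the Clca counts without each library in turn were added after the data were seen. The cause of these changes was not tested, but 1 sex alone has fewer mice.

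Values near 0 turned direction: the sex by Winnie value of Clca3a1 became 0.02 without TMM factors, and on leaving out 1 library males against females ran from -0.50 to 0.17 for Clca1, -0.38 to 0.55 for Clca2 and -0.15 to 0.36 for Clca4b. Over all genes, Winnie against C57BL/6 gave 16 calls, 0 to 677 on leaving out 1 library (677 without Winnie replicate 5, 32 without C57BL/6 replicate 7), 8 without TMM factors, 68 with no filter, 0 with at least 10 counts in every library, 26 with sex as a covariate, 199 with all 3 groups in one fit, 130 in males, 0 in females, 1203 with DESeq2 and 2757 at an adjusted p under 0.05. Winnie-Prolapse against C57BL/6 gave 5004 with DESeq2, 5981 at 0.05, 307 in males and 255 in females, and Winnie-Prolapse against Winnie 0 to 1 on leaving out 1 library, 644 with DESeq2, 1191 at 0.05, 42 with all 3 groups in one fit and 54 in females. With at least 10 counts in every library Clca2 gave no value.

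No paired analysis was possible because the labels give no replicate numbers, and those used here, counted within each group in the order of deposit, only name libraries.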
